A study of Mus musculus with 4 samples.

Results

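The lineage basic helix-loop-helix (bHLH) transcription factor genes were described by their H3K27me3 in female mouse embryonic fibroblasts with and without SmcHD1. They were chosen by symbol from the autosomal rows of an H3K27me3 enrichment table, and all 38 symbols were found among its 22691 genes. Both genotypes had a value for 37 of them. The exception was Atoh7, a retinal factor gene listed with a length of 450 bp, and the shortest gene with any value in the table was 1000 bp long. The members were grouped by lineage into 17 neural, 9 mesenchymal or mesodermal (below, mesenchymal), 4 muscle and 3 blood factors and 5 Hes and Hey genes, called Notch targets below.

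Per the labels, the cells were fibroblasts of strain C57BL6/J made from E13.5 fetuses. One genotype was Smchd1 +/+ (WT) and the other Smchd1 MD1/MD1 (MD1), which the series' design describes as deficient for SmcHD1. Each genotype had 1 ChIP library made with the monoclonal antibody CMA323 and 1 input library without antibody, so there is no replicate error and no test between genotypes. Whether a culture came from 1 fetus or several is not given in the sources used here. Values are the deposited log2 enrichments per gene, positions are mm9, and the depth of the libraries is unknown. A lower value can mean fewer cells with the mark or less mark per cell, and these cannot be told apart.

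H3K27me3 is laid down by Polycomb repressive complex 2 and in many tissues covers the genes of lineage regulators that are silent there. Lineage bHLH factors bind DNA as dimers, usually with a broadly expressed E protein, and switch on programmes such as neurogenesis or myogenesis. Id proteins block them by binding the E proteins without binding DNA, and Hes and Hey factors, many of them induced by Notch signalling, are repressors.

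Most of these genes carried H3K27me3 well above the autosomal median in both genotypes, and the medians of the genotypes were close. Their median log2 enrichment was 2.15 in WT and 1.97 in MD1, beside autosomal medians of -0.78 and -0.90. The middle 50% of them lay between 0.34 and 2.76 in WT and between 0.87 and 2.87 in MD1. A gene is called marked here at a log2 enrichment of at least 1. In WT 25 of the 37 were marked, against 15.3% of 19836 autosomal genes, and in MD1 27 were, against 16.3%. In the shortest length quartile, which holds 31 of the 37, the share was higher. There 1200 of 4959 autosomal genes were marked in WT and 1231 in MD1. The 25 genes marked in WT were all marked in MD1 too, and Bhlhe22 and Tal2 passed the limit in MD1 alone. Ranked among autosomal genes, 10 members stood in the top 100 in WT and 10 in MD1. The spread within the group was wide, from -3.62 at Hes1 to 3.63 at Neurog3 in WT. Across the 37 genes, which share the same libraries, WT and MD1 values correlated with r = 0.95, and across the 25 genes marked in WT with r = 0.74. Over all autosomal genes r was also 0.95, and over all those marked in WT 0.74.

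**Figure D1:**
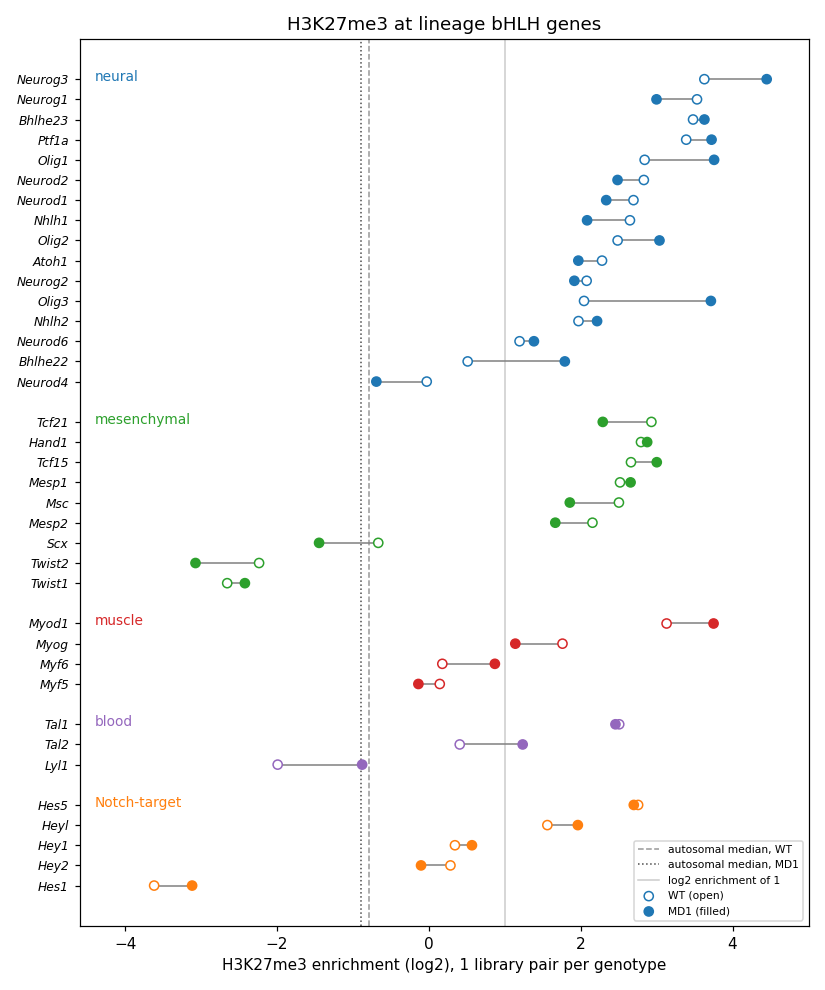
H3K27me3 enrichment (log2, x axis) of each of the 37 genes with values, grouped by lineage and ordered by WT level, with open points for WT and filled points for MD1 (1 library pair each). Most neural genes lie right of the line at 1, while Hes1, Twist1 and Twist2 lie left of both autosomal medians, -0.78 and -0.90.

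Nearly all neural factors were marked. Of 16 with values, 14 were marked in WT and 15 in MD1, with medians of 2.57 and 2.41, and none lay below the autosomal median. The proneural gene Neurog3 had the highest level of the class in both genotypes. It specifies endocrine cells of the pancreas (10, 61595838 to 61597511) and stood at 3.63 in WT and 4.45 in MD1. These are enrichments of 12.4 and 21.8 on the linear scale. Its MD1 value was the highest of all genes with an MD1 value, the X included, and its WT value had rank 6. In lowest terms its ratios were 12 to 1 in WT and 67 to 3 in MD1 (these are the deposited values as whole numbers times 1 constant per genotype), so both values may rest on few input reads. Neurog1, a determinant of sensory neurons (13, 56351860 to 56353524; 101 to 9 and 49 to 6 in lowest terms), went from 3.53 to 2.998, and Neurog2 from 2.08 to 1.92. Within this family the difference, MD1 minus WT, was thus 0.82 at Neurog3 and -0.53 at Neurog1.

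The NeuroD genes, which act later in neuronal differentiation, split by level. Neurod1 went from 2.69 to 2.34 and Neurod2 from 2.83 to 2.48, with nearly equal differences of -0.36 and -0.35. Neurod6 stood lower, at 1.19 and 1.38. Neurod4 was the neural gene with the least mark, at -0.03 in WT and -0.69 in MD1. Nhlh1 and Nhlh2, which encode factors of young neurons, went from 2.65 to 2.08 and from 1.97 to 2.22, so that their order in WT was the opposite of that in MD1.

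The oligodendrocyte and spinal cord genes Olig1, Olig2 and Olig3 were all higher in MD1. Olig1 went from 2.84 to 3.76 and Olig2, 41091 bp away on chromosome 16, from 2.49 to 3.04. Olig3 (10, 19076345 to 19078410), which marks dorsal spinal cord progenitors, went from 2.04 to 3.71, or from 4.12 to 13.1 on the linear scale. Its difference of 1.67 (3.18-fold) was the largest of any member. In lowest terms its ratios were 4 to 1 in WT and 161 to 12 in MD1. The WT value may therefore rest on few input reads.

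Among the remaining neural genes 1 pair of paralogs differed in level. Bhlhe23, a factor of retinal interneurons (2, 180509086 to 180511605; 184 to 17 and 215 to 17 in lowest terms), stood at 3.48 in WT and 3.63 in MD1. Its paralog Bhlhe22 (3, 17954325 to 17957514) stood at 0.51 in WT, 7.83-fold lower, and at 1.79 in MD1, with a difference of 1.28 and ratios of 47 to 34 and 99 to 28 in lowest terms. Ptf1a, needed for pancreas and for inhibitory neurons of the cerebellum, went from 3.39 to 3.72. Atoh1, needed for hair cells and cerebellar granule neurons, went from 2.28 to 1.97.

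The mesenchymal factors fell into 2 sets, with no WT value between -0.67 and 2.15. Of the 9, 6 were marked in both genotypes. Tcf21, a factor of visceral mesenchyme, went from 2.93 to 2.29, and Msc, a repressor in muscle precursors of the head, from 2.50 to 1.86. Hand1, of heart and trophoblast, stood at 2.79 and 2.87, and the somite gene Tcf15 at 2.66 and 3.001. The early mesoderm genes Mesp1 and Mesp2, 17136 bp apart on chromosome 7, stood at 2.52 and 2.66 and at 2.15 and 1.66. The lowest of these 12 values was thus 1.66, at Mesp2 in MD1.

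The other 3 mesenchymal genes carried little mark. Twist1, a regulator of mesenchyme and neural crest (12, 34642536 to 34644696), stood at -2.66 in WT and -2.42 in MD1. Its close paralog Twist2 (1, 93698054 to 93744604) stood at -2.24 and -3.07, the most negative difference of any member at -0.84. Genes of like level and length had a median difference of -0.88, so that relative to them Twist2 differed by 0.05. The tendon gene Scx went from -0.67 to -1.45, but its interval lies within that of Bop1 (-2.16 and -3.19), with which it can share reads. For Twist1 the ratios in lowest terms were 2 to 13 and 4 to 21, and for the much longer Twist2 148 to 719 and 91 to 750. Markers of fibroblasts, by which the labelled cell type was checked, had a median of -2.84 in WT. All 15 lay below the autosomal median in WT, and in MD1 all but Lum did.

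The 4 myogenic factors, which can turn fibroblasts into muscle when expressed, differed widely in level. Myod1, which commits cells to the muscle lineage, went from 3.13 to 3.75 and had the highest level of the class in both genotypes. Myog, which drives terminal differentiation, went from 1.76 to 1.14. Myf5 and Myf6, which lie 6725 bp apart on chromosome 10 and act early and late in myogenesis, were barely marked, at 0.14 and 0.18 in WT. In MD1 Myf5 stood at -0.14 and Myf6 (10, 106929916 to 106931785; 34 to 31 and 28 to 15 in lowest terms) at 0.87. Both lay above the autosomal medians, so all 4 muscle genes did, but only Myod1 and Myog were marked.

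Of the 3 blood factors, Tal1, required for all blood lineages, stood at 2.51 in WT and 2.46 in MD1. Tal2, named for its activation in T cell leukaemia and active also in the midbrain, went from 0.41 to 1.23. Lyl1, the closest blood paralog of Tal1 (8, 87225356 to 87228615), went from -1.99 to -0.88, a difference of 1.11. Its interval overlaps that of Nfix by 5 bp, and its ratios in lowest terms were 10 to 41 and 5 to 9. In WT Tal1 was thus 22.6-fold above Lyl1.

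Among the Notch targets, Hes1 and Hes5 lay at opposite ends. Hes5, a Notch target of neural progenitors, stood at 2.76 in WT and 2.70 in MD1. Hes1, expressed in many cell types (16, 30065443 to 30067882), had the lowest level of all members, -3.62 and -3.12, and in WT it stood at percentile 1.21 of autosomal genes. This was 83.0-fold below Hes5 in WT. Its ratios were 3 to 38 and 2 to 17 in lowest terms. The 3 Hey genes were in between, with Heyl at 1.56 and 1.96, Hey1 at 0.34 and 0.57 and Hey2 at 0.28 and -0.10.

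By class, the median WT level was 2.57 for neural, 2.50 for mesenchymal, 0.97 for muscle, 0.41 for blood and 0.34 for Notch target genes. Their ranges overlapped, since each class held a gene at or above 2.51 and, except for the neural and muscle classes, one at or below -0.67. The median differences were 0.17, -0.49, 0.17, 0.83 and 0.22 in the same order. Relative to genes of like level and length the medians were 0.07, -0.01, 0.15, 0.80 and 0.25. The mesenchymal median thus differed little from such genes, but single mesenchymal genes ran from -0.74 at Msc to 0.96 at Twist1. With 3 to 16 genes a class and 1 library pair per genotype these are descriptions and were not tested.

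The promoter sequences were set beside the levels because Polycomb complexes are known to gather at CpG-rich promoters. RefSeq promoters of build GRCm38.p6, taken as the 250 bases before the start site, were found for 27 of the 38 genes, 26 of them with values. The 5 shown carry the contrast between letters and level. Neurog3 has the highest level, and Ptf1a and Twist1 have nearly the same number of CpG with opposite levels. Nhlh1 and Myf5 have few CpG, and in WT Nhlh1 was marked and Myf5 was not. In this order the 5 lie at chr10:62132840-62133089 (plus strand), chr2:19445413-19445662 (plus), chr12:33957421-33957670 (plus), chr1:172057597-172057846 (minus) and chr10:107486135-107486384 (minus) of GRCm38.p6. Each is written 5′ to 3′ with every CpG in capitals.
Neurog3: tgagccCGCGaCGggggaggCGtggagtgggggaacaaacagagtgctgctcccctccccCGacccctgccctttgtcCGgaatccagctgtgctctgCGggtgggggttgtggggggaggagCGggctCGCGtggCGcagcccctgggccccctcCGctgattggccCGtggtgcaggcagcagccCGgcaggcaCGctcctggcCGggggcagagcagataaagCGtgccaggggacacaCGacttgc
Ptf1a: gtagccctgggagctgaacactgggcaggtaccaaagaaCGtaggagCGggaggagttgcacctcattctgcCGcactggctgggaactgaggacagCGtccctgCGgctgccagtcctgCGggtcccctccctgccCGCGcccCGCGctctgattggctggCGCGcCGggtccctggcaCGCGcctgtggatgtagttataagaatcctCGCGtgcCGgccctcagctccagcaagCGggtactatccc
Twist1: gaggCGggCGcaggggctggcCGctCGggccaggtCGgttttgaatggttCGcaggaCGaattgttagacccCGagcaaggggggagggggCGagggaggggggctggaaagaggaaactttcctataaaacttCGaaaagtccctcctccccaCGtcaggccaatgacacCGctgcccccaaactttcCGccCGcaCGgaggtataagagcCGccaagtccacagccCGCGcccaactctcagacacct
Nhlh1: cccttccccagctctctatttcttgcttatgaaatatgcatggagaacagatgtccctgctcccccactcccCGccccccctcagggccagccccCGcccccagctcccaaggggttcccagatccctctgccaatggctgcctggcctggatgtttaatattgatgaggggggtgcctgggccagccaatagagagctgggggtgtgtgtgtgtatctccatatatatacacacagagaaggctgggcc
Myf5: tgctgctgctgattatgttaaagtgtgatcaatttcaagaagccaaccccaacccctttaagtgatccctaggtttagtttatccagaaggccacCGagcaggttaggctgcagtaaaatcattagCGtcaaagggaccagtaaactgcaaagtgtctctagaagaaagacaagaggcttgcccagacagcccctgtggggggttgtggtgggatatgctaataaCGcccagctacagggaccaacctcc

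Neurog3 has 18 CpG in this window and Ptf1a 19. Twist1 has 18, yet stood at -2.66 in WT against 3.39 at Ptf1a. Nhlh1 has 2 CpG and stood at 2.65, and Myf5 has 3 and stood at 0.14. The CpG ratio, observed over expected from the C and G content, was 0.70 at Ptf1a, 0.74 at Twist1, 0.095 at Nhlh1 and 0.20 at Myf5. Over the 19 marked members it had a median of 0.58 and over the 7 unmarked ones 0.47, with ranges of 0.095 to 0.9995 and 0.12 to 0.79 that overlapped. Of the 12 members with a ratio of at least 0.6, 9 were marked in WT, and of the 14 below it 10 were. Among all autosomal genes with values and a promoter, 8.09% of 7431 with such a ratio were marked and 21.0% of 7318 below it. The window ends at the start site, so CpG beyond it were not counted, while the level is per gene. The E-box CANNTG, the motif bHLH dimers bind, which reads the same on both strands, was in 16 of the 27 windows (59.3%), against 61.8% of 14749 autosomal ones. Its form CAGCTG, counted within the former, was in 1, that of Neurog3, against 12.8%.

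**Figure D2:**
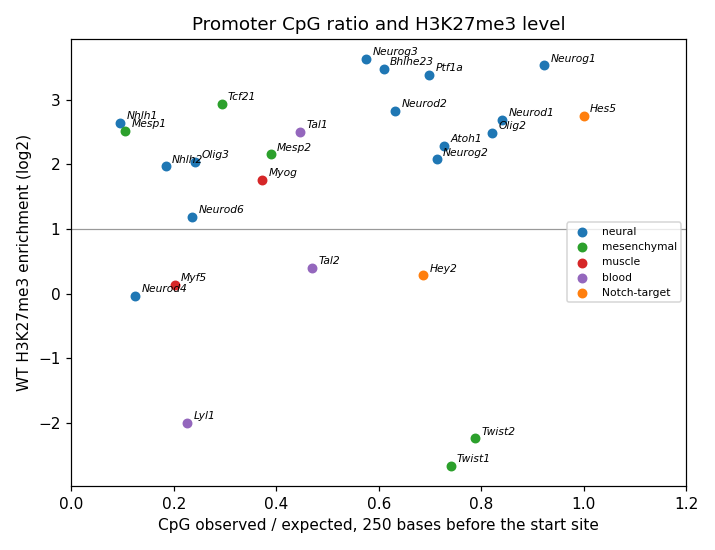
CpG ratio of the 250 bases before the start site (x axis) and WT H3K27me3 enrichment (log2, y axis) for the 26 members with both, coloured by lineage. Marked genes, above the line at 1, are found from 0.095 to 0.9995 on the x axis, and Twist1 and Twist2 lie low at 0.74 and 0.79.

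Most of these genes carried more of the mark than the genes next to them. Each member was compared with the nearest listed gene with values on either side that did not overlap it. In WT 31 of 37 members lay above the mean of their neighbours, against 49.7% of autosomal genes, and 15 lay at least 4-fold above it, against 10.8%. The 31 were all 25 marked members and 6 of the 12 unmarked ones. These backgrounds were not limited to genes of like level or length. Tcf15 stood at 2.66 between the oxidoreductase gene Srxn1 (-2.09) and the kinase subunit gene Csnk2a1 (-2.84). Hand1, at 2.79, lay between Sap30l (-1.72) and Larp1 (-2.43). Both were therefore marked between genes with little mark. Other members lay in wider marked stretches. Both neighbours were marked at Neurog1, Neurog3, Olig2, Mesp1, Myod1 and Myog, and Olig2 and Mesp1 have another member as 1 of these neighbours. Tal1 (2.51) had Pdzk1ip1 at 2.48 on one side and Stil at -2.78 on the other. Hes1 showed the reverse, at -3.62 between 9030404E10Rik at 0.69 and Cpn2 at 0.36. Distances to these neighbours ran from 1648 bp to 1307163 bp, so they bound the marked stretch only coarsely.

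**Figure D3:**
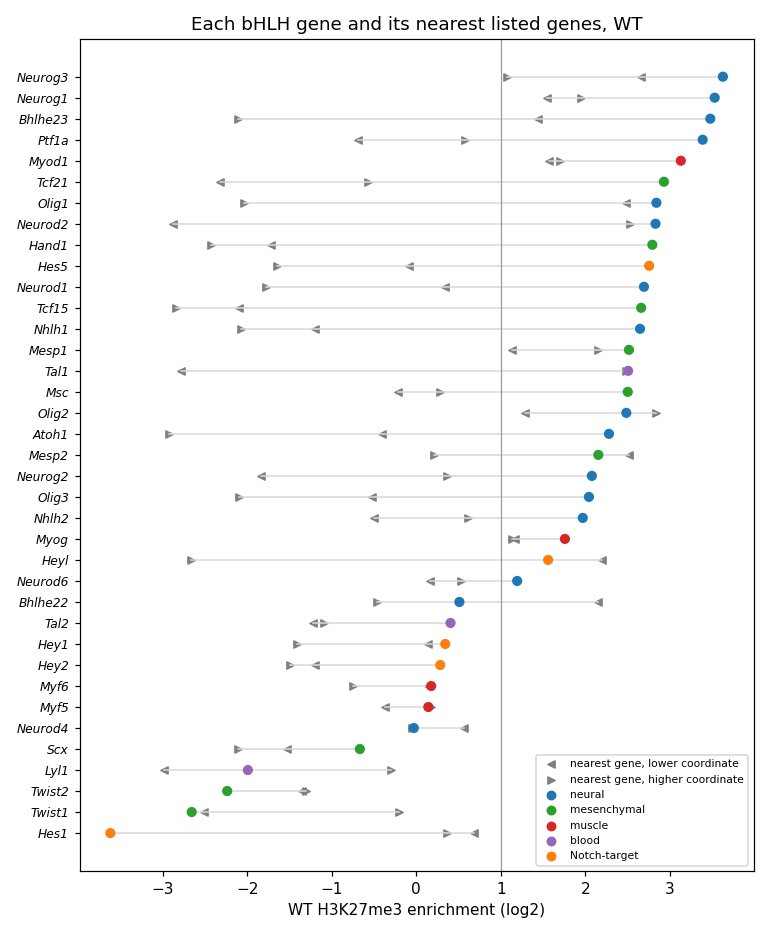
WT H3K27me3 enrichment (log2, x axis) of each member (coloured point) and of the nearest listed genes at lower and higher coordinates (grey triangles), ordered by the member's level. Tcf15 and Hand1 lie far right of both neighbours, and Hes1 lies far left of both.

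In MD1 cells the mark was higher at some of these genes and lower at others. The difference had a median of 0.14 (quartiles -0.39 and 0.50) against -0.27 over autosomal genes, and was positive at 20 of 37 members, against 31% of autosomal genes. Over the 11 members with denominators of at least 20 in both genotypes its direction turned, to -0.050. A fraction in lowest terms can hide larger counts, so this choice does not cleanly sort members by reads. No conclusion is drawn from it. No member was at least 2-fold lower in MD1, against 20.4% of autosomal genes, and 3 were at least 2-fold higher (Olig3, Bhlhe22 and Lyl1), against 1.61%. These backgrounds depend on level and length. Among autosomal genes marked in WT, whose median difference was 0.06, 2.41% were lower and 0.957% higher. In the shortest length quartile, which holds 31 of the 37 members, 22.2% were lower and 5.36% higher. Of the 25 marked members, 1 (Olig3) was at least 2-fold higher and none lower.

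**Figure D4:**
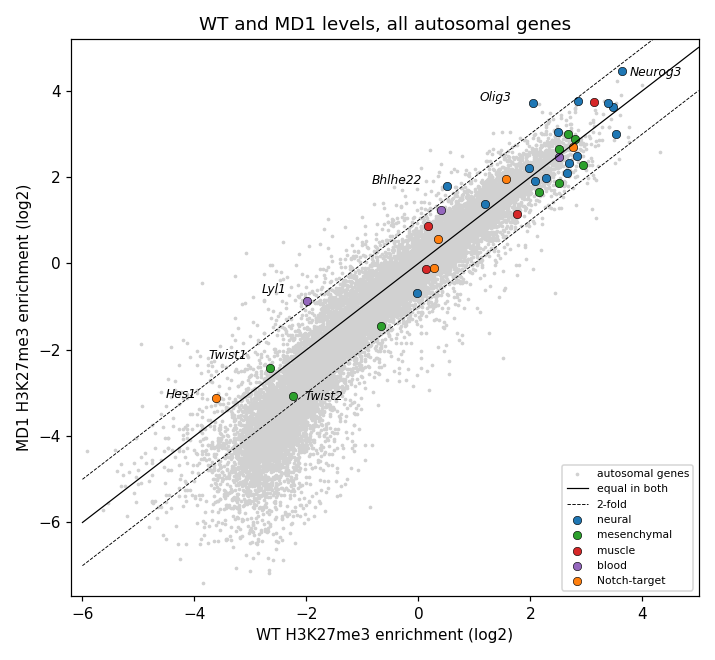
MD1 (y axis) against WT (x axis) H3K27me3 enrichment (log2) for 19836 autosomal genes in grey and the 37 members coloured by lineage. Olig3, Bhlhe22 and Lyl1 lie above the upper dashed 2-fold line, and no member lies below the lower one.

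In place of replicates, each difference was set against those of 500 autosomal genes of the same length quartile, the nearest by mean level. The standard deviation (SD) of their differences had a median of 0.55 for the members, and ran from 0.25 at Twist2 to 1.146 at Hes1. Relative to the median of these genes, 22 members differed by less than 1 SD and 34 by less than 2 SD. The other 3 were Olig3 (1.58, SD 0.55), Bhlhe22 (1.24, SD 0.59) and Tal2 (0.80, SD 0.34). All 3 were higher in MD1, as were 2.75% of autosomal genes by at least 2 SD. No member was lower by as much, against 2.33%. By this measure 4 members were at least 2-fold higher, against 3.16%, and none lower, against 3.41%. These backgrounds depend on length. In the shortest length quartile, which holds 31 of the members, 474 of 4959 autosomal genes were higher by as much and 498 lower. The 4 members were Olig3, Bhlhe22, Lyl1 (1.30, SD 0.97) and Hes1 (1.75, SD 1.146), and the last 2 lie within 2 SD. The place of Tal2 past 2 SD depends on a length limit. At 7181 bp it lies just above the shortest quartile, which ends at 7105 bp. In that quartile the SD was 0.59 for Bhlhe22 and 0.67 for Myf6, whose mean levels lie on either side of that of Tal2. At the highest levels the 500 genes lie mostly below the member, so the match is one-sided for Neurog3 and its like.

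**Figure D5:**
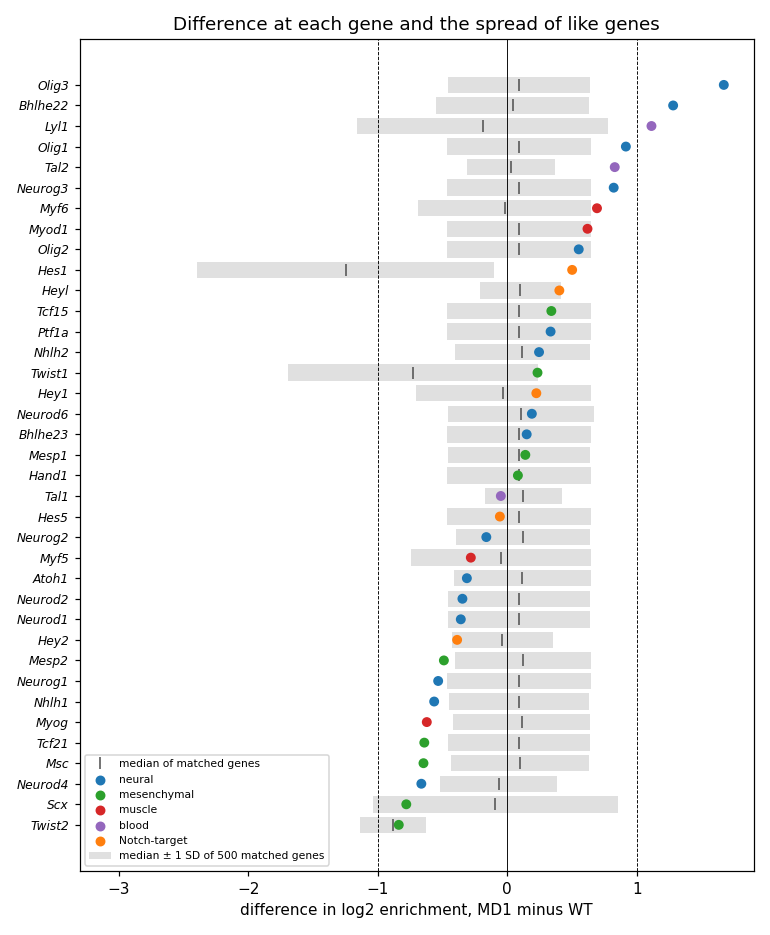
Difference in log2 enrichment, MD1 minus WT (x axis), for each member (coloured by lineage), with the median (tick) and ± 1 SD (grey bar) of the 500 autosomal genes of like level and length. Olig3, Bhlhe22 and Tal2 lie at least 2 SD from their ticks, all on the positive side.

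The partners and inhibitors of these factors had little mark in either genotype. The E protein genes Tcf3, Tcf4 and Tcf12 had a median of -2.05 in WT and -3.16 in MD1 and none was marked. Tcf3 went from -2.05 to -3.45, Tcf12 from -2.57 to -3.16 and Tcf4 from -1.79 to -2.05. The 4 Id genes had medians of -3.35 and -3.08, with Id3 going from -4.13 to -3.12, Id1 from -3.71 to -4.28 and Id4 from -1.93 to -2.10. The WT ratio of Id3 was 1 to 18 in lowest terms, so its value may rest on a single ChIP read.

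The wider bHLH family was set beside them. Of 25 other genes listed as tissue-restricted, 21 had values and 11 were marked in each genotype. The median level was 1.06 in WT and 1.07 in MD1. The limb gene Bhlha9 went from 2.35 to 3.48 and the secretory cell gene Bhlha15 from 0.74 to -0.16. Bhlhe40 was placed on this list though it is a clock-linked repressor expressed in many cell types. It went from -2.60 to -6.86, but its MD1 ratio was 1 to 114 in lowest terms and its interval overlaps another gene. Of 25 broadly expressed bHLH genes, 24 had values and 1, Tcfl5, was marked, with medians of -1.97 and -2.30. The largest differences there were at Srebf1 (-1.39), Mnt (-1.29) and Clock (-1.23). Relative to genes of like level and length they were -0.07 (SD 0.39), -0.41 (SD 0.52) and -0.06 (SD 0.28), each within 1 SD. The interval of Srebf1 also overlaps that of Rai1. Beside them, 32 Sox, Pax and Gata genes had medians of 1.74 and 1.44, and 19 of them were marked in WT.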

How the data were processed

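H3K27me3 was measured by ChIP-seq in 4 libraries, 1 ChIP and 1 input for each of 2 genotypes. The authors deposited 1 table of log2 enrichments per gene, with columns for WT and MD1 per the file headers. The submitters' processing notes name the build mm9, and the aligner, the way reads were counted and the denominator are not stated. With the constant of each genotype removed, 99.98% of WT and 99.95% of MD1 values were fractions of whole numbers up to 20000 (tolerance 1e-12). These fractions are reduced, so reads and counting errors are unknown.

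The difference was MD1 minus WT over 19836 autosomal genes with both values, and 2-fold is an absolute difference of 1. MD1 values were more widely spread (slope of MD1 on WT 1.25), so a difference relative to 500 genes of like level and length was added. The members and lists were chosen with earlier results of these data known. Every member is given, with coordinates and ratios for those changed at least 2-fold, the 3 highest and lowest in WT and the largest difference of each class. From each other bHLH list up to 3 genes with the largest difference were named. Tcfl5, Lum, the neighbours and the promoters shown were picked after their values were seen. Tcfap4 of the broadly expressed list was not analysed here. Median WT levels of markers of other cell types were 1.07 (5 blood), 1.30 (6 epithelial) and 0.03 (5 neuronal genes). Where RefSeq lists several promoters the first was used. The scripts were tested on simulated data and ran in Python 3.11.15 with numpy 2.4.6 and pandas 2.3.3. Alternatives were pseudocounts of 1 and 0.1, centring, leaving out overlapping genes, a minimum mean level (25th percentile), matched differences, means, limits of 1.5-fold and 3-fold, and a marked limit at the 90th percentile. A minimum denominator of 20 was added after seeing the data.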

Additional observations from a re-analysis of the deposited data

How the results depend on the processing

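A log2 value is called moved here when a setting shifted it by at least 0.58 (1.5-fold), and a count when it changed by more than 1.5 times. No median difference moved under any planned setting, and neither count of marked members did. That limit is wider than every main median difference except that of blood genes, so the others could vanish without being called moved. The mesenchymal difference went from -0.49 to -0.01 when matched, -0.12 with a pseudocount of 1 and -0.20 without overlapping genes. That of blood genes went from 0.83 to 0.80 when matched, 0.30 with a pseudocount of 1 and 0.39 without overlapping genes. Over all members the difference went from 0.14 to 0.04 with a pseudocount of 1. Of the single differences, 2 of 37 changed sign when centred (Hes5 and Tal1) and 2 when matched (Hand1 and Twist2), and none did with either pseudocount. The number at least 2-fold higher, 3, became 1 with a pseudocount of 1, 8 at a limit of 1.5-fold and 1 at 3-fold. The number lower, 0, became 6 at 1.5-fold. Centred on the autosomal median, the median level became 2.94 in WT and 2.86 in MD1, and by class in WT 3.35 (neural), 3.29 (mesenchymal), 1.75 (muscle), 1.19 (blood) and 1.13 (Notch targets), since centring adds a constant. With means the WT level became 1.49 over members and 1.11 over mesenchymal genes, which hold very low values. The blood WT level became 1.46 without Lyl1, which overlaps Nfix, and the Notch target level 0.95 when the filter on mean level removed Hes1. Only 11 members had denominators of at least 20 in both genotypes, and their median difference was -0.050, against 0.14 over all 37. As the fractions are in lowest terms, the members left out need not have few reads. Of the 11, 1 was at least 2-fold higher, 7 were marked in WT and 8 in MD1, as fewer genes were counted. Their WT level was 1.97 for neural and 2.51 for blood genes, and the blood difference, resting on Tal1 alone, was -0.050. No muscle gene had such denominators. No paired analysis was possible because each genotype had 1 ChIP library. Depth is unknown, and short genes such as these scatter more between the libraries (SD of matched differences 0.86 in the shortest and 0.28 in the longest length quartile).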
